A study of Homo sapiens with 6 samples.

Results

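Chemokines are small secreted proteins that draw white blood cells along a gradient, and colorectal epithelium and its tumours are among their sources. The 10 genes described here are CXC chemokines, among them CXCL8, the gene of interleukin-8, and a pair of CC chemokines of epithelia. They were taken by gene symbol as CXCL1, CXCL2, CXCL3, CXCL5, CXCL6, CXCL8, CXCL10, CXCL16, CCL20 and CCL28, and all 10 were found among the 26255 symbols of each file. The data are FPKM values, in which the fragments on a gene are scaled to its transcript length and to the library's mapped total, of messenger RNA from HCT116, an established human colorectal carcinoma line. Per the series title the cells carry the degron of ornithine decarboxylase, a stretch that marks a protein for breakdown by the proteasome with no need for ubiquitin, and ZsGreen is a green fluorescent protein. Fluorescence-positive cells gave 3 libraries and fluorescence-negative cells gave 3, and both groups are cells of the same single line. The labels name no treatment, culture time or sorting step and do not say that libraries came from separate cultures, so every p-value reflects library-to-library spread only, and that spread could be technical. The sample titles follow a different naming scheme in each group, and any difference in handling between the groups cannot be told apart from ZsGreen state.

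CXCL1, CXCL2, CXCL3, CXCL5, CXCL6 and CXCL8 belong to the ELR group, which also holds PPBP and is named for the amino acids glutamate, leucine and arginine in front of the first cysteines. They bind the receptors CXCR1 and CXCR2 and are known above all for attracting neutrophils. CXCL10 lacks this motif, is induced by interferon and binds CXCR3 on T cells, whereas CXCL16 is made as a membrane protein, is released by metalloproteases and binds CXCR6. CCL20 binds CCR6, and CCL28 binds CCR10 and CCR3 at mucosal surfaces. Transcription of CXCL8 and its relatives is known to be switched on by NF-kappaB, with AP-1 and C/EBP factors at the CXCL8 promoter, and their messenger RNAs are short-lived.

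These 6 ELR genes sit in a cluster on chromosome 4, and their promoters are shown because all 6 share the core of an NF-kappaB site. RefSeq promoter windows (GRCh38.p14, 250 bases before to 50 after the annotated start) were at hand for 9 of the 10 genes, with 2 windows for CCL28 and none for CXCL16. The letters GGAATTTCC, sought on both strands, were found in the windows of CXCL1, CXCL2, CXCL3, CXCL5, CXCL6, CXCL8 and CXCL10, against 0.461% of all 35116 windows of this length. In the ELR genes the match began 77 to 91 bases before the start and lay on the gene's own strand, and in CXCL10 it began 176 bases before the start and lay on the opposite strand, so that it reads GGAAATTCC. The 7 stretches below, 5′ to 3′ on the gene's strand with the match in capitals, show that CXCL1, CXCL2 and CXCL3 are nearly alike around the site and that CXCL5 and CXCL6 form a second pair.
CXCL8: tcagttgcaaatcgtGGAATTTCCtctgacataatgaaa
CXCL1: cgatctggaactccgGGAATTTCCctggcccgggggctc
CXCL2: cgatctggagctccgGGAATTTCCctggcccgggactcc
CXCL3: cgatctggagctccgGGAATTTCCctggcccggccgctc
CXCL5: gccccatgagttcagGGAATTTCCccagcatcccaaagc
CXCL6: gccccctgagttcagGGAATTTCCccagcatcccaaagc
CXCL10: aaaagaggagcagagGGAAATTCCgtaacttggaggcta
They lie at chr4:73740463-73740501 (plus strand), chr4:73869300-73869338 (plus), chr4:74099249-74099287 (minus), chr4:74038744-74038782 (minus), chr4:73998744-73998782 (minus), chr4:73836574-73836612 (plus) and chr4:76023650-76023688 (minus) in GRCh38.p14.

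The 250 bases before the start of CXCL8, the gene on which the results turn most, are at chr4:73740319-73740568 on the plus strand of GRCh38.p14. Their capitals mark an AP-1 match, TGANTCA, and the NF-kappaB core, which did not overlap.
CXCL8: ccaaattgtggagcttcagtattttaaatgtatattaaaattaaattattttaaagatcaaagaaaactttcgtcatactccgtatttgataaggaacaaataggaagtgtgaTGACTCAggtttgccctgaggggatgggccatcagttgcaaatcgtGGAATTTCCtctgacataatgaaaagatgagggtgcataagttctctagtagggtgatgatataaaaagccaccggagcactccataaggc
The AP-1 letters were in the CXCL8 window and in no other window of these genes, against 7.71% of all windows. The CCL20 window has no GGAATTTCC and holds GGGAAAACC, another NF-kappaB-type sequence found in 0.439% of all windows, 80 bases before the start, and marked in capitals in its 250 bases at chr2:227813592-227813841 on the plus strand of GRCh38.p14.
CCL20: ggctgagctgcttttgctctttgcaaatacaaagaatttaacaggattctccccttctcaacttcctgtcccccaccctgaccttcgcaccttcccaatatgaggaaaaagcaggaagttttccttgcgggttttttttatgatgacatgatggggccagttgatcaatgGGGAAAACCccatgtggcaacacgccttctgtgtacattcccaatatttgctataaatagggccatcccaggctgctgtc
The letters GAAANNGAA, part of an interferon-stimulated response element, were in the windows of CXCL10, CXCL2 and CXCL3, beginning 221, 217 and 233 bases before the start, against 8.11% of all windows. No match overlapped another, and the CCL28 windows held none. The motifs were picked after the sequences had been read, and a match is a description of letters, not a bound site.

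Chemokine FPKM was far lower in ZsGreen-positive than in ZsGreen-negative cells, and CXCL8 made up most of the difference. Summed over the 10 genes, FPKM was 13.6 ± 3.02 in ZsGreen-positive and 146 ± 3.89 in ZsGreen-negative libraries (SD, n = 3 each). Of the 10 genes, 5 had a mean of at least 1 FPKM over the 6 libraries and were tested with limma on log2(FPKM + 1) together with all 12213 such genes. CXCL1, CXCL2, CXCL3, CXCL8 and CXCL16 were all lower at an adjusted p under 0.05, beside 30.0% of all tested genes called lower, 29.4% called higher and 59.4% called in either direction. All 5 had a log2 difference of -1 or lower as well, against 8.34% of all tested genes. The lowest ZsGreen-negative value lay above the highest ZsGreen-positive value for each of the 5, as it did for 34.5% of all tested genes. CXCL2 reached the minimum of 1 FPKM through the ZsGreen-negative libraries alone, so its place among the tested genes itself depended on the difference. In such bulk samples, fewer cells that make a transcript and less of it per cell cannot be told apart.

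CXCL8 was the most abundant chemokine transcript of the ZsGreen-negative cells. It was at 3.14, 2.74 and 2.32 FPKM in ZsGreen-positive replicates 1 to 3, against 101, 111 and 114 FPKM in ZsGreen-negative replicates 1 to 3. The groups were far apart, with every ZsGreen-positive library under 4 FPKM and every ZsGreen-negative library above 100. The means were 2.73 ± 0.409 FPKM in ZsGreen-positive and 108 ± 6.94 FPKM in ZsGreen-negative libraries (SD, n = 3 each), 39.7-fold lower in ZsGreen-positive cells. On the log2(FPKM + 1) scale, which understates changes of low genes, the difference was -4.88 ± 0.10 (SE; limma adjusted p = 1.64e-07). Ranked by level among all symbols, CXCL8 was at places 9722, 10074 and 10447 in the ZsGreen-positive libraries and at places 715, 652 and 626 in the ZsGreen-negative libraries.

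CXCL1, CXCL2 and CXCL3, also called the GRO genes, were far below CXCL8 in ZsGreen-negative cells on this length-scaled measure. CXCL2 was at 0.665, 0 and 0 FPKM in ZsGreen-positive replicates 1 to 3 and at 11.0, 9.78 and 8.85 FPKM in ZsGreen-negative replicates 1 to 3. It was listed at 0 in 2 of the ZsGreen-positive libraries, and its difference of -3.20 ± 0.23 (SE; limma adjusted p = 2.41e-05) was the 13th lowest of all tested genes. CXCL1 was at 0.611, 3.45 and 1.50 FPKM in ZsGreen-positive libraries and at 6.02, 5.63 and 5.26 FPKM in ZsGreen-negative libraries, with a difference of -1.34 ± 0.34 (SE; limma adjusted p = 0.0109). Unlike CXCL2, it was above 0 in every library, and its ZsGreen-positive values spread over a wider range than its ZsGreen-negative ones. CXCL3 was at 3.41, 0 and 0 FPKM in ZsGreen-positive and at 4.80, 4.23 and 3.66 FPKM in ZsGreen-negative libraries, with a difference of -1.67 ± 0.55 (SE; limma adjusted p = 0.0333). ZsGreen-positive replicate 1 thus came close to the lowest ZsGreen-negative library for CXCL3. With replicate 1 as the only ZsGreen-positive library, the CXCL3 difference was -0.24 (limma adjusted p = 0.194, with the lone library assumed to vary like the ZsGreen-negative ones), and without it -2.38 (limma adjusted p = 8.2e-05). The call of CXCL3 was also lost without ZsGreen-positive replicate 2 (adjusted p = 0.103) or 3 (adjusted p = 0.102), and without ZsGreen-negative replicate 1 (adjusted p = 0.0905), 2 (adjusted p = 0.0782) or 3 (adjusted p = 0.0682), all by limma.

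The GRO transcripts resemble one another, so reads can be split between them in ways the FPKM values do not show. In GENCODE 29 transcripts, CXCL1 and CXCL2 were 90.3% identical over 1086 aligned bases, CXCL2 and CXCL3 82.3% over 1017 and CXCL1 and CXCL3 80.3% over 1003. Stretches of 50 bases common to CXCL1 and CXCL2 numbered 60, which is 5.73% of those in CXCL1 and 5.13% of those in CXCL2. CXCL8 shared no such stretch with any of them. Added together, a sum chosen after the data were seen, CXCL1, CXCL2 and CXCL3 came to 4.69, 3.45 and 1.50 FPKM in ZsGreen-positive and 21.9, 19.6 and 17.8 FPKM in ZsGreen-negative replicates 1 to 3. The sum kept the groups apart, and it was also less uneven between ZsGreen-positive libraries than CXCL3 alone. CXCL2 made up 14.2%, 0% and 0% of this sum in ZsGreen-positive and 50.5%, 49.8% and 49.8% in ZsGreen-negative replicates 1 to 3. CXCL3 made up 72.8%, 0% and 0% in ZsGreen-positive and 21.9%, 21.6% and 20.6% in ZsGreen-negative replicates 1 to 3, and CXCL1 the rest. The balance of the GRO genes was thus steady among ZsGreen-negative libraries and differed between replicate 1 and the other ZsGreen-positive libraries.

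CXCL16, the membrane-bound member, had the smallest log2 difference of the tested chemokines, though this order depended on the setting. With 5 instead of 1 added to FPKM, the differences were -0.63 for CXCL3, -0.65 for CXCL1 and -0.81 for CXCL16. Without ZsGreen-positive replicate 1 they were -0.99 for CXCL1 and -1.20 for CXCL16. CXCL16 was at 9.16, 6.26 and 7.43 FPKM in ZsGreen-positive and at 17.6, 18.5 and 14.9 FPKM in ZsGreen-negative replicates 1 to 3. The groups did not overlap, and the means of 7.62 ± 1.46 FPKM in ZsGreen-positive and 17.0 ± 1.85 FPKM in ZsGreen-negative libraries (SD, n = 3 each) differed 2.23-fold, lower in ZsGreen-positive cells. The log2 difference was -1.07 ± 0.14 (SE; limma adjusted p = 0.000525).

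The leading chemokine transcript was not the same in the groups. The log2 ratio of CXCL8 to CXCL16 was -1.54, -1.19 and -1.68 in ZsGreen-positive and 2.52, 2.58 and 2.93 in ZsGreen-negative replicates 1 to 3. CXCL16 was the higher of the pair in 3 of 3 ZsGreen-positive libraries and CXCL8 in 3 of 3 ZsGreen-negative libraries (exact permutation test of the ratio, two-sided, p = 0.1, which is the lowest p possible with 3 libraries a group). This pair had the largest and smallest log2 differences of the tested chemokines. The separation of the ratio followed from that choice, so its p-value adds no support. Of the summed chemokine FPKM, CXCL16 took 56.7% ± 8.23 in ZsGreen-positive and 11.6% ± 1.28 in ZsGreen-negative libraries (SD, n = 3 each). CXCL8 took 20.4% ± 1.76 in ZsGreen-positive and 74.0% ± 3.32 in ZsGreen-negative libraries (SD, n = 3 each). In every ZsGreen-negative library the order of levels was CXCL8, CXCL16, CXCL2, CXCL1 and CXCL3, with no overlap between neighbours. In ZsGreen-positive libraries CXCL16 stood above all the others, whereas CXCL8, CXCL1 and CXCL3 overlapped and their order changed from library to library.

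**Figure D1:**
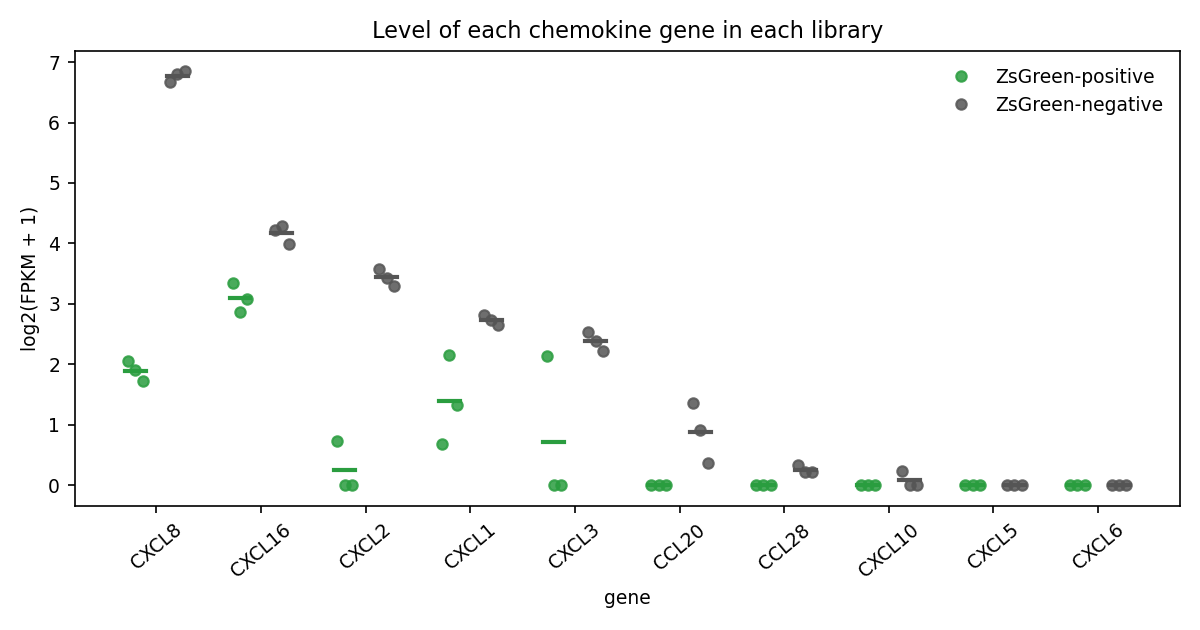
Level of each of the 10 chemokine genes in each library as log2(FPKM + 1); points are libraries (ZsGreen-positive green, ZsGreen-negative grey, n = 3 each) and short lines are group means. The CXCL8 points lie far apart between groups, and CXCL3 has 1 ZsGreen-positive library, replicate 1, near the ZsGreen-negative ones.

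**Figure D2:**
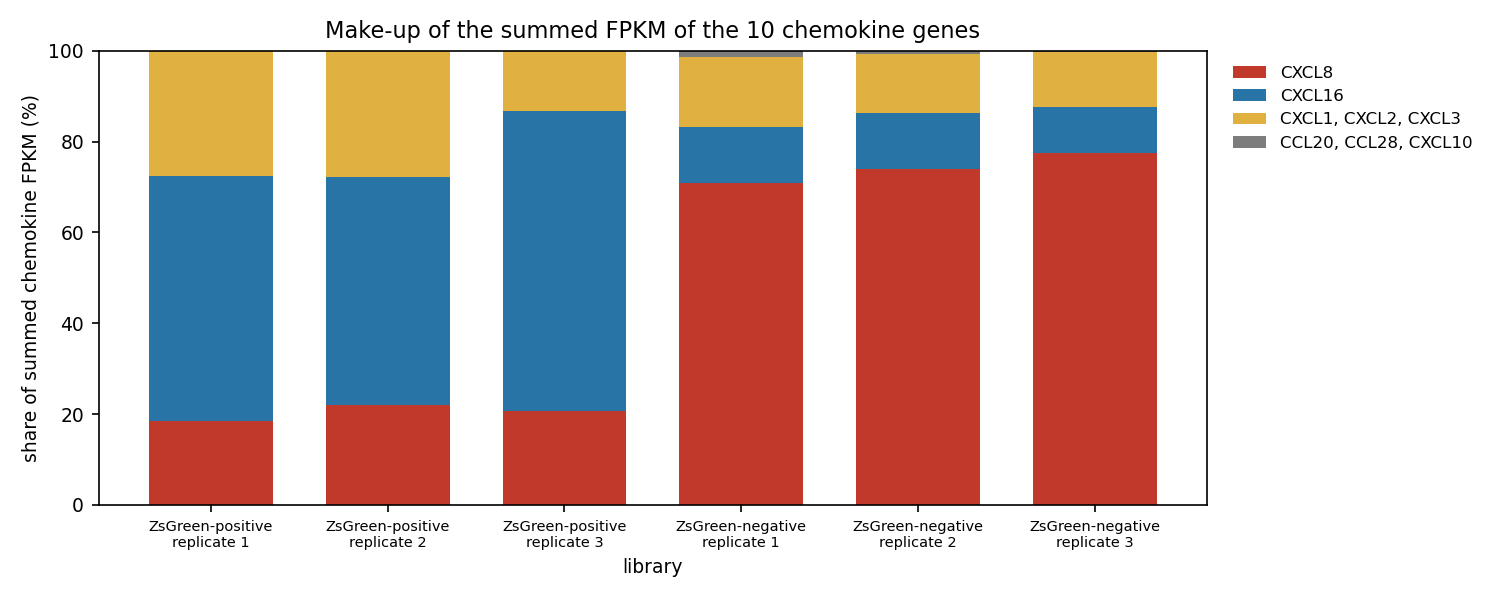
Share of each chemokine in the summed FPKM of the 10 genes, in percent, for each library. CXCL16 takes 50.3% to 66.0% in ZsGreen-positive libraries, and CXCL8 takes 70.8% to 77.5% in ZsGreen-negative libraries.

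The other 5 genes were too low to be tested. CCL20, a chemokine for lymphocytes and immature dendritic cells, was listed at 0 in all 3 ZsGreen-positive libraries and was at 1.56, 0.890 and 0.292 FPKM in ZsGreen-negative replicates 1 to 3. CCL28 was listed at 0 in all 3 ZsGreen-positive libraries and was at 0.256, 0.167 and 0.163 FPKM in ZsGreen-negative replicates 1 to 3. CXCL10 was listed at 0 in all 3 ZsGreen-positive libraries and was at 0.180, 0 and 0 FPKM in ZsGreen-negative replicates 1 to 3. These are values of a few fragments: by the estimate of depth given here, CCL20 rested on about 12.6, 7.0 and 2.3 fragments and CXCL10 on about 2.0 fragments in the libraries where they were above 0. CXCL5 and CXCL6, ELR genes of the same cluster, were listed at 0 in all 6 libraries. Their windows hold the same GGAATTTCC letters as those of the GRO genes.

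An exact 0 has to be read with care in ZsGreen-positive replicates 2 and 3. Symbols listed at 0 numbered 10314, 11624 and 11989 in ZsGreen-positive and 8985, 9040 and 9162 in ZsGreen-negative replicates 1 to 3 (exact permutation test, two-sided, p = 0.1). The share of all FPKM on small RNA genes was 67.2% ± 1.14 in ZsGreen-positive libraries, against 67.6% ± 0.260 in ZsGreen-negative ones (SD, n = 3 each; p = 0.9, two-sided exact permutation test). Of 732 genes at 3 to 4 FPKM in ZsGreen-positive replicate 1, the range that holds CXCL3, 1.23% were listed at 0 in replicate 2 and 1.78% in replicate 3. Of 967 genes at 0.5 to 1 FPKM there, the range that holds CXCL2, 13.7% and 17.4% were listed at 0. From low values of genes with 1 annotated transcript, depth was put at about 12000000 fragments in ZsGreen-positive replicate 1 and 9340000 to 9600000 in ZsGreen-negative libraries, where 1 fragment on 1 kb of transcript was worth 0.083 and 0.104 to 0.107 FPKM. ZsGreen-positive replicates 2 and 3 had 71 and 41 such low genes, against 215 to 318 in the other libraries and the minimum of 150 set for an estimate, and gave no usable estimate, so their depth is unknown. The part of these library differences in the zeros of CXCL2, CXCL3, CCL20 and CCL28 was not tested.

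**Figure D3:**
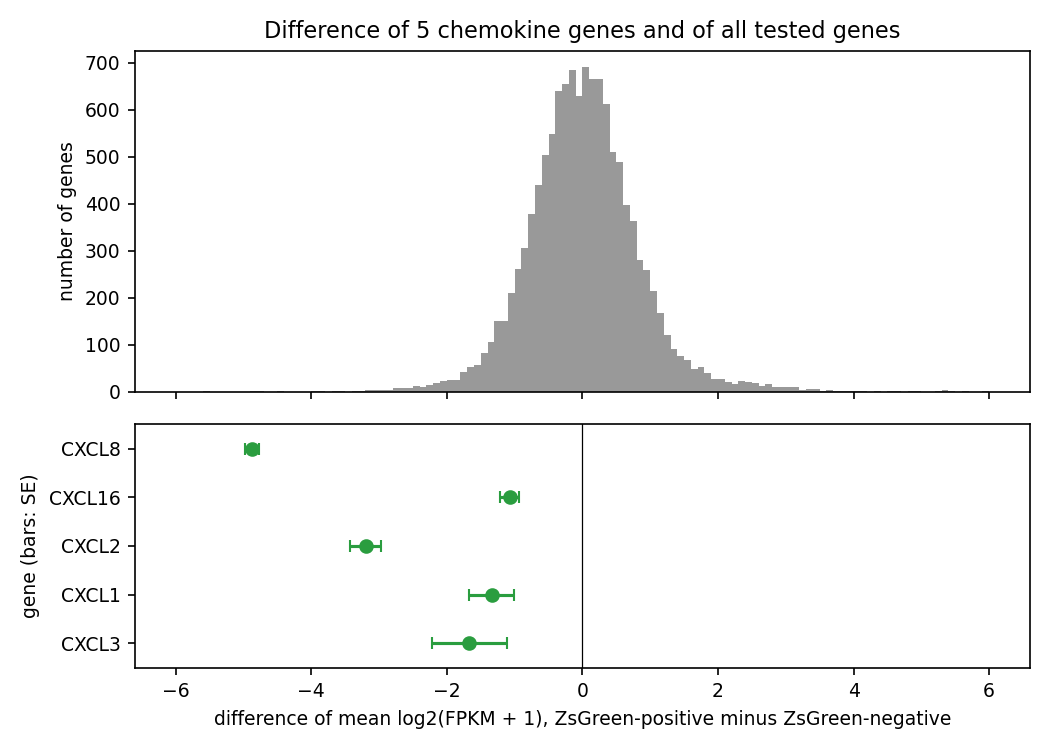
Difference of mean log2(FPKM + 1), ZsGreen-positive minus ZsGreen-negative, for all 12213 tested genes (grey counts, upper panel) and for the 5 tested chemokines (lower panel; bars are SE from limma). The chemokines lie between -4.88 and -1.07.

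Apart from CCL5, chemokines outside this group were low or listed at 0. Of 13 other CXC, CX3C and XC ligands, which include CXCL10 and CXCL16, only CXCL16 was tested and 8 were listed at 0 in all libraries. Of 26 CC ligands, which include CCL20 and CCL28, 19 were listed at 0 in all libraries and only CCL5, a T cell chemokine, was tested. CCL5 was at 6.41, 4.99 and 5.03 FPKM in ZsGreen-positive and 3.47, 3.83 and 5.33 FPKM in ZsGreen-negative replicates 1 to 3. Its groups overlapped and its log2 difference was 0.32 ± 0.17 (SE; limma adjusted p = 0.131), but it was called higher with each library rescaled to a sum of 1000000, with or without small RNA genes. Among 23 chemokine receptors, only CXCR4, the receptor of CXCL12, was tested. It fell to 1.22 ± 0.506 FPKM in ZsGreen-positive cells, against 6.21 ± 0.138 FPKM in ZsGreen-negative cells (SD, n = 3 each; log2 difference -1.72 ± 0.19, limma adjusted p = 0.000198). CXCR1 and CXCR2, the receptors of the ELR chemokines, did not exceed 0.128 and 0.119 FPKM in any library.

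Many genes that switch on or restrain these chemokines were lower too. Of 17 NF-kappaB subunits, inhibitors and kinases, all tested, 11 fell, 1 rose and 5 did not pass, with a median log2 difference of -0.72, beside a median of 0.0040 and shares of 30.0% lower and 29.4% higher over all tested genes. With the replicate number as a block 9 fell, and CHUK and NFKBIZ were no longer called. TNFAIP3, which ends NF-kappaB signalling, fell to 0.572 ± 0.479 FPKM in ZsGreen-positive cells, against 5.44 ± 0.229 FPKM in ZsGreen-negative cells (SD, n = 3 each; limma adjusted p = 0.000179), and like CXCL2 it passed the 1 FPKM minimum through the ZsGreen-negative libraries alone. REL and RELB, DNA-binding subunits, fell by 1.64 and 1.64 on the log2 scale (limma adjusted p = 0.000446 and 5.38e-05). NFKB1, which encodes a subunit made from a longer precursor, was at 14.9 ± 1.57 FPKM in ZsGreen-positive and 14.6 ± 0.633 FPKM in ZsGreen-negative cells (SD, n = 3 each; limma adjusted p = 0.822). The member that rose was IKBKG, the scaffold of the kinase complex. With libraries rescaled to a sum of 1000000, 8 of 16 fell and 2 rose, and CHUK, IKBKB and NFKBIZ were no longer called. Of 16 other epithelial genes known to respond to NF-kappaB, 7 were tested, 4 of which fell and 3 did not pass (median -0.90). They were led by BIRC3, an inhibitor of apoptosis, LCN2, an iron-binding secreted protein, and IRF1, a transcription factor of interferon responses, with log2 differences of -3.85 ± 0.25, -3.33 ± 0.30 and -2.05 ± 0.20 (SE; limma adjusted p = 1.73e-05, 8.14e-05 and 0.000103).

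Of 12 AP-1 and C/EBP factors, 9 fell, 1 rose and 2 did not pass (median log2 difference -1.14), beside 30.0% of all tested genes lower and 29.4% higher. CEBPD fell to 3.29 ± 1.40 FPKM in ZsGreen-positive cells, against 22.0 ± 1.92 FPKM in ZsGreen-negative cells, and FOSL2, a FOS-related partner of JUN, to 6.45 ± 0.657 against 38.5 ± 1.09 FPKM (SD, n = 3 each; limma adjusted p = 6.48e-05 and 1.63e-06). FOSL1 fell by 1.87 on the log2 scale (limma adjusted p = 0.00064). The member that rose was CEBPB, whose groups overlapped (limma adjusted p = 0.0291), and without ZsGreen-positive replicate 1 it was no longer called. FOS did not pass (limma adjusted p = 0.0851), but its groups did not overlap. It was at 156, 78.5 and 90.4 FPKM in ZsGreen-positive and 73.3, 71.3 and 70.9 FPKM in ZsGreen-negative replicates 1 to 3. With libraries rescaled to a sum of 1000000, with or without small RNA genes, or with the replicate block, 9 fell and 2 rose. Without ZsGreen-positive replicate 1, 9 fell and 1, FOS, rose. Of 17 upstream cytokines, 8 were listed at 0 in all libraries, among them IL6, IL17A and IL33, and TNF did not exceed 0.0656 FPKM. IL18 and LIF were the tested cytokines, and both fell. IL18, a cytokine kept as an inactive precursor, was at 112 ± 3.67 FPKM in ZsGreen-positive and 167 ± 5.24 FPKM in ZsGreen-negative cells (SD, n = 3 each; limma adjusted p = 0.000105), and LIF was not called with libraries rescaled to a sum of 1000000. Of 24 receptors and adaptors of such cytokines, 20 were tested, of which 9 fell, 3 rose and 8 did not pass (median -0.38, and -0.18 with libraries rescaled to a sum of 1000000), beside 30.0% of all tested genes lower and 29.4% higher. IL1RAP, the shared chain of interleukin-1 receptors, and TLR3, a sensor of double-stranded RNA, fell by 1.62 and 1.63 on the log2 scale (limma adjusted p = 0.000836 and 0.000239). TRAF2, an adaptor of TNF receptors, rose by 1.49 (limma adjusted p = 5.81e-05).

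Regulators of the decay of short-lived messenger RNAs moved in both directions. Of 13 tested, 7 fell, 3 rose and 3 did not pass (median log2 difference -0.78, and -0.31 with replicate 1 as the only ZsGreen-positive library), beside 30.0% of all tested genes lower and 29.4% higher. KHSRP and HNRNPD rose, with log2 differences of 1.09 and 0.90 (limma adjusted p = 4.28e-05 and 0.000286). TIA1, which also rose, was not called under quantile normalisation or with the replicate block. ZC3H12A, a nuclease of cytokine transcripts, fell to 1.91 ± 0.379 FPKM in ZsGreen-positive cells, against 9.82 ± 0.137 FPKM in ZsGreen-negative cells (SD, n = 3 each; limma adjusted p = 1.74e-05). ZFP36, which binds AU-rich elements, fell to 6.99 ± 0.681 FPKM in ZsGreen-positive cells, against 23.3 ± 3.71 FPKM in ZsGreen-negative cells (SD, n = 3 each; limma adjusted p = 4.28e-05). RC3H1, which binds stem-loops, had a log2 difference of -1.16 (limma adjusted p = 0.000647). Of 10 proteases and proteoglycans that cleave or carry chemokines, 7 were tested, of which 5 fell, 1 rose and 1 did not pass (median -0.99). MMP7, among those that fell, passed the 1 FPKM minimum through the ZsGreen-negative libraries alone. With libraries rescaled to a sum of 1000000, 6 were tested, of which 3 fell and 1 rose, with a median of -0.48. DPP4 was then not called, nor was it with small RNA genes left out of the sum or with the replicate block. ADAM17, a sheddase of membrane proteins, was at 25.9 ± 1.68 FPKM in ZsGreen-positive and 58.3 ± 0.758 FPKM in ZsGreen-negative cells (SD, n = 3 each; limma adjusted p = 1.04e-05). The cell-surface proteoglycans differed in direction, with log2 differences of -1.40 for SDC4 and 1.37 for SDC1 (limma adjusted p = 1.67e-05 and 0.000183).

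Some genes beside the chemokine cluster on chromosome 4 were lower as well. Of 12 neighbours, PPBP, PF4 and PF4V1 among them, 5 were tested, of which 4 fell and 1 did not pass (median log2 difference -0.77), beside 30.0% of all tested genes lower. Without ZsGreen-positive replicate 1, 3 of 6 fell, and BTC was no longer called there or under either rescaling. The growth factor genes EREG and AREG, ligands of the EGF receptor, and the folate enzyme gene MTHFD2L had log2 differences of -1.21, -1.39 and -0.77 (limma adjusted p = 2.48e-06, 9.19e-06 and 0.00366). Of 7 neighbours of CXCL10, which lies farther along the same chromosome, 4 were tested. Of these, 1 fell, 2 rose and 1 did not pass (median 0.16), beside 30.0% of all tested genes lower and 29.4% higher. With libraries rescaled to a sum of 1000000, with or without small RNA genes, 1 fell and 3 rose (median 0.33). SCARB2, a lysosomal membrane protein, fell by 0.90, whereas NAAA rose by 0.93 and NUP54 by 0.27 (limma adjusted p = 2.73e-05, 0.00525 and 0.0247). NUP54 was not called after quantile normalisation or with replicate 1 as the only ZsGreen-positive library.

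By the smallest Euclidean distance between centred log2(FPKM + 1) profiles over the 6 libraries, the tested genes most like CXCL8 included THBS1, IFI6, NR4A1 and BIRC3, at distances of 0.484, 1.12, 1.24 and 1.58. THBS1, which encodes thrombospondin 1, was at 1.84, 0.849 and 1.41 FPKM in ZsGreen-positive and 59.9, 60.3 and 59.8 FPKM in ZsGreen-negative replicates 1 to 3. All of these profiles share the drop between the groups, which is nearly all that 6 libraries in 2 groups can show.

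Markers of other cell types were low, though not all at 0. Of 7 neutrophil markers, 6, S100A8 among them, were at 0 in every library and CSF3R did not exceed 0.0237 FPKM, and their summed FPKM was 0 to 0.0237 in ZsGreen-positive and 0 in ZsGreen-negative libraries. Summed FPKM of 6 leukocyte and T cell markers was 0.0871 to 0.382 in ZsGreen-positive and 0.189 to 0.275 in ZsGreen-negative libraries, with CD3D, CD3E and CD2 at 0. CD4 averaged 0.208 ± 0.113 FPKM in ZsGreen-positive and 0.0898 ± 0.0222 FPKM in ZsGreen-negative libraries (SD, n = 3 each), and CD8A did not exceed 0.161 FPKM. Summed FPKM of 8 monocyte and macrophage markers was 0.470 to 4.51 in ZsGreen-positive and 3.50 to 4.47 in ZsGreen-negative libraries, with AIF1, C1QA and C1QB at 0. LYZ and CD68, a lysosomal protein of macrophages, carried most of it. LYZ was at 0.284, 1.53 and 0 FPKM in ZsGreen-positive and 2.03, 1.62 and 1.80 FPKM in ZsGreen-negative replicates 1 to 3. CD68 was at 4.13, 0.919 and 0.470 FPKM in ZsGreen-positive and 1.73, 1.36 and 1.72 FPKM in ZsGreen-negative replicates 1 to 3. The CD68 groups overlapped, with ZsGreen-positive replicate 1 the highest library and replicates 2 and 3 the lowest (limma adjusted p = 0.867). Summed FPKM of 8 fibroblast markers was 1.90 to 2.26 in ZsGreen-positive and 3.17 to 3.25 in ZsGreen-negative libraries, with COL1A2, DCN and LUM at 0 and VIM at up to 1.52 FPKM. Summed FPKM of 6 endothelial markers was 0.171 to 0.310 in ZsGreen-positive and 0.115 to 0.166 in ZsGreen-negative libraries, with CLDN5 at 0. VWF averaged 0.102 ± 0.0600 FPKM in ZsGreen-positive and 0.0480 ± 0.0127 FPKM in ZsGreen-negative libraries (SD, n = 3 each), and KDR was at 0.0654, 0 and 0.246 FPKM in ZsGreen-positive and 0.0159, 0.0167 and 0.0492 FPKM in ZsGreen-negative replicates 1 to 3. Of 10 colorectal epithelial markers 8 were tested, of which 4 fell, 2 rose and 2 did not pass, beside 30.0% of all tested genes lower and 29.4% higher. EPCAM, one of those that rose, was not called with the replicate block or without ZsGreen-positive replicate 1, and its direction turned under quantile normalisation. CLDN4, CDH1 and KRT18 had log2 differences of -2.03, -1.47 and -0.66 (limma adjusted p = 6.15e-06, 5.46e-06 and 0.000287), but KRT18 was still at 955 ± 90.2 FPKM in ZsGreen-positive cells, against 1505 ± 20.3 FPKM in ZsGreen-negative cells (SD, n = 3 each). LYZ of the macrophage list and COL1A1 of the fibroblast list were called lower (log2 differences -0.92 and -0.74, limma adjusted p = 0.0484 and 0.00727), and both passed the 1 FPKM minimum through the ZsGreen-negative libraries. LYZ was not called without ZsGreen-positive replicate 1 or with libraries rescaled without small RNA genes, and neither was tested with libraries rescaled to a sum of 1000000. CDX1 was listed at 0 throughout and VIL1 did not exceed 0.0377 FPKM. The part of these markers in the chemokine differences was not tested.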

How the data were processed

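Per the labels' protocols, RNA was extracted with TRIzol and a miRNeasy Micro kit and made into libraries with the TruSeq Stranded mRNA kit. The authors deposited 1 table of FPKM values per library. Tools named in the submitters' processing notes are Cuffdiff 2.2.1, SAMtools 0.1.18, TopHat2 2.1.1 and Bowtie2 2.2.8, and the build was hg19. Settings, annotation, strand handling and scaling between libraries are not given in the sources used. FPKM depends on a shared total, so abundant RNAs shift all other values.

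Differences were tested with limma 3.58.1 (R 4.3.3; lmFit, eBayes with trend, two-sided, 4 residual and 3.22 prior degrees of freedom) on log2(FPKM + 1) for the 12213 genes with a mean of at least 1 FPKM, with Benjamini-Hochberg adjustment over all of them, a threshold of 0.05 and no covariates. The code was tested on simulated data. Library values and the CXCL8 to CXCL16 ratio had exact permutation tests. Depth was estimated from the mode of low products of FPKM and length among 1857 genes with 1 GENCODE 29 transcript of 1000 to 6000 bases. It counts fragments after any scaling by the authors. Member fragments used the length of 1 transcript each. Genes and lists were chosen with earlier results of these data known. Named from each list were at most 3 genes that passed with the largest differences (where none passed, the 2 with the highest mean), as well as the 5 nearest CXCL8 profiles (1 of them is not reported here) and, chosen after their values were seen, NFKB1, IKBKG, CEBPB, CD68, VIM, MMP7, genes whose call was lost under an alternative and genes at or near 0. Alternatives were other pseudocounts, filters and scalings, no trend, a replicate block and libraries left out. Python 3.11.15 with pandas 2.3.3, NumPy 2.4.6 and SciPy 1.17.1 was used.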

Additional observations from a re-analysis of the deposited data

How the results depend on the processing

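CXCL8, CXCL2 and CXCL16 were called lower under each of 18 alternatives and CXCL1 under each of 17, with log2 differences of -5.31 to -3.87, -7.92 to -1.51, -1.20 to -0.81 and -2.04 to -0.65. CXCL3 kept its direction under all of its 17 alternatives and lost its call under 8 of them (adjusted p 8.2e-05 to 0.194), among them a pseudocount of 0.01 (adjusted p = 0.0502) and no filter (adjusted p = 0.0733). At a minimum mean of 5 FPKM, 3 of these genes were tested and 3 fell, beside 3006 of all 8555 genes tested. CXCL1 and CXCL3 are below that minimum. With no filter, 8 were tested and 6 fell, and CCL20 (adjusted p = 0.0292) and CCL28 (adjusted p = 0.00442) were then called lower, beside 4325 of all 18934 genes tested. Both were at 0 in every ZsGreen-positive library, so these calls set zeros against a few fragments. With 1 library left out, 4 to 5 of these genes fell, beside 2962 to 3816 of the 12191 to 12209 genes tested. Rescaling each library to a sum of 1000000 set the summed level to 8.35 in ZsGreen-positive and 80.17 in ZsGreen-negative libraries, and without small RNA genes in the sum to 25.53 and 247.8, because the unit changed. It moved the median log2 difference of all genes to 0.15 and 0.14, and 37.6% and 39.5% of called genes were then lower, against 50.5% with the deposited values. Deviations of same-numbered libraries correlated at -0.02, -0.03 and -0.02, so no shared replicate effect was seen over the tested genes. These values cannot tell whether same-numbered libraries were handled together, which the labels do not say. With the replicate number as a block, 5 of these genes fell, beside 3482 of all 12213 genes tested. ZsGreen-positive replicates 2 and 3, whose depth is unknown, limit above all what can be said of genes under about 1 FPKM. The limit does not end there. Of genes at 3 to 4 FPKM in ZsGreen-positive replicate 1, the range that holds CXCL3, 1.23% and 1.78% were listed at 0 in replicates 2 and 3.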
